A study of Mus musculus with 87 samples.

Results

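Sham surgery opens the abdomen and leaves the liver whole, and livers taken 48 h after it (S48) were compared here with livers of mice without surgery collected at 0 h (C0). The libraries were chosen by their labels and numbered 9 (3 S48 livers and C0 replicates 1 to 6) of the 80 libraries with values, out of 87 labelled samples. All mice were C57BL/6 males aged 12 to 14 weeks, entrained to a light and dark cycle with food only in the dark. Both groups were collected at Zeitgeber time 2 (ZT2), 2 h after the lights came on, so that the hour of the day was the same in both. The S48 mice had a laparotomy under isoflurane at ZT2 and kept their whole liver, and the study also mentions a painkiller. Anaesthesia, painkiller, wound and stress cannot be told apart in these groups. Each library is poly(A) RNA from the liver of 1 mouse, so the replicates are separate animals, although 3 mice at a time were operated on and killed together.

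The S48 livers belong to 1 experimental period of the study, whereas the C0 livers came as 3 triplicates from different periods. The replicate numbers of each period are not given in the sources used here, and the C0 livers were taken as triplicates by number. C0 replicates 7 to 9 stayed out of the comparison and served as further unoperated livers at the same ZT2. Of these, C0 replicate 8 stood apart, with high levels of several transcripts that were also high in S48 (its Lcn2 level was 49.98 RPKM, against 0.905 and 0.587 RPKM in replicates 7 and 9). The RPKM summed over all genes was 656200 to 689400 in C0 replicates 7 to 9. It was 567400 to 592600 in C0 replicates 1 to 6 and 556500 to 570800 in S48. Comparisons with C0 replicates 7 to 9 were not rescaled for this, and its part in their counts was not tested.

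As background, injury and infection release interleukin-6 and related cytokines, which act on hepatocytes through the receptor subunit gp130 and the transcription factor STAT3. In this acute-phase response the hepatocyte makes more of some plasma proteins, among them serum amyloid A, haptoglobin, hemopexin and the fibrinogen chains, and less of others, such as albumin and transthyretin. The Socs3 protein is induced by the same signal and limits it.

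Levels are given as RPKM (reads per kilobase of transcript and per mega (M) reads), which are corrected for length, and differences as log2 fold changes on the scale of log2(RPKM + 0.25), S48 minus C0. Estimated depths were 21.7 to 34.4 M reads in S48 and 25.5 to 34.3 M reads in C0 replicates 1 to 6. A transcript was called when the limma test gave a p, adjusted by Benjamini-Hochberg, under 0.05 and the log2 fold change exceeded 0.5 in size. Of 15396 genes tested, 930 were called (6.04%), 418 higher (2.71%) and 512 lower (3.33%) in S48. These shares are the background for the counts in the gene lists below. The share of higher genes among those called was 44.9%, and it came to 49.0% of 1001 genes with the libraries scaled to a common median and 55.6% of 958 genes after quantile normalisation. In 776 of the 930 genes the 3 S48 and 6 C0 libraries did not overlap, compared with 16.8% of all genes tested, and in 610 the S48 libraries also lay outside the range of all 9 C0 livers, compared with 11.2% of all genes (265 above, compared with 4.33%, and 345 below, compared with 6.9%). Here and below, calls and separation from C0 replicates 1 to 6 come from the same libraries, so that the separation is no further support. Changes of 4-fold or more were found in 39 genes that were higher and 20 that were lower.

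The choice of the C0 triplicate moved these counts. Pearson correlations were 0.990 to 0.995 within C0 replicates 1 to 3 and 4 to 6 and 0.974 to 0.981 between these triplicates. Between S48 and C0 livers they were 0.963 to 0.976. The test takes the 6 C0 livers as independent, so that its SE and p values do not account for differences between periods. Against C0 replicates 1 to 3 alone 1064 genes were called (499 higher and 565 lower) and against replicates 4 to 6 alone 987 (383 higher and 604 lower). Called against both and in the pooled comparison were 395 genes (203 higher and 192 lower). Against C0 replicates 7 to 9, 3744 genes were called (1863 higher and 1881 lower), compared with 930 in the pooled comparison.

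The largest rises in S48 were mostly of acute-phase transcripts. The 12 largest rises and falls are those among called genes whose mean log2 RPKM was above 0 in either group and whose S48 and C0 libraries did not overlap. Saa1 and Saa2 encode the acute-phase serum amyloid A proteins (mm9 chr7:53995871-53998350 and chr7:54007203-54009684), and as near-identical copies they may share reads. Saa2 stood at 10939, 8732 and 5538 RPKM in S48 replicates 1 to 3, while the 6 C0 livers ranged from 16.5 to 28.6 RPKM, with a median of 20.5. The lowest S48 liver was far above the highest C0 liver, and the log2 fold change was 8.58 ± 0.68 (SE, adjusted p = 1.23e-15). Saa1 stood at 11351, 9886 and 6261 RPKM in S48 and at 44.1 to 115 RPKM, with a median of 60.0, in C0, a change of 7.13 ± 0.64 (SE, adjusted p = 1.28e-13). In C0 replicates 7 to 9 Saa1 reached 79.6, 596 and 16.4 RPKM, so that replicate 8 was above the other C0 livers and still below every S48 liver.

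Lcn2, which encodes lipocalin 2, a protein that binds bacterial iron carriers, stood at 157, 239.9 and 206 RPKM in S48 and at 1.61 to 2.28 RPKM, with a median of 1.95, in C0. The groups were apart, which the rule required, and the change was 6.504 ± 0.62 (SE, adjusted p = 1.46e-12). The acid glycoprotein transcripts followed, with Orm2 at 797, 1328 and 822 RPKM in S48 and 26.4 to 41.6 RPKM, with a median of 34.7, in C0, a change of 4.81 ± 0.48 (SE, adjusted p = 8.77e-12). Orm3 changed by 3.96 ± 0.57 (SE, adjusted p = 5.36e-07) and Orm1 by 2.11 ± 0.24 (SE, adjusted p = 5.88e-10). Fgl1, which encodes a secreted protein related to fibrinogen, rose from 34.9 to 52.8 RPKM, with a median of 42.2, in C0 to 385, 505 and 425 RPKM in S48, a change of 3.34 ± 0.29 (SE, adjusted p = 6.62e-14). Isyna1, which encodes the enzyme that makes inositol phosphate from glucose 6-phosphate, stood at 13.4, 28.8 and 14.7 RPKM in S48 and at 1.39 to 1.85 RPKM, with a median of 1.52, in C0, a change of 3.30 ± 0.29 (SE, adjusted p = 6.62e-14). None of these S48 values overlapped with C0 replicates 1 to 6.

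**Figure D1:**
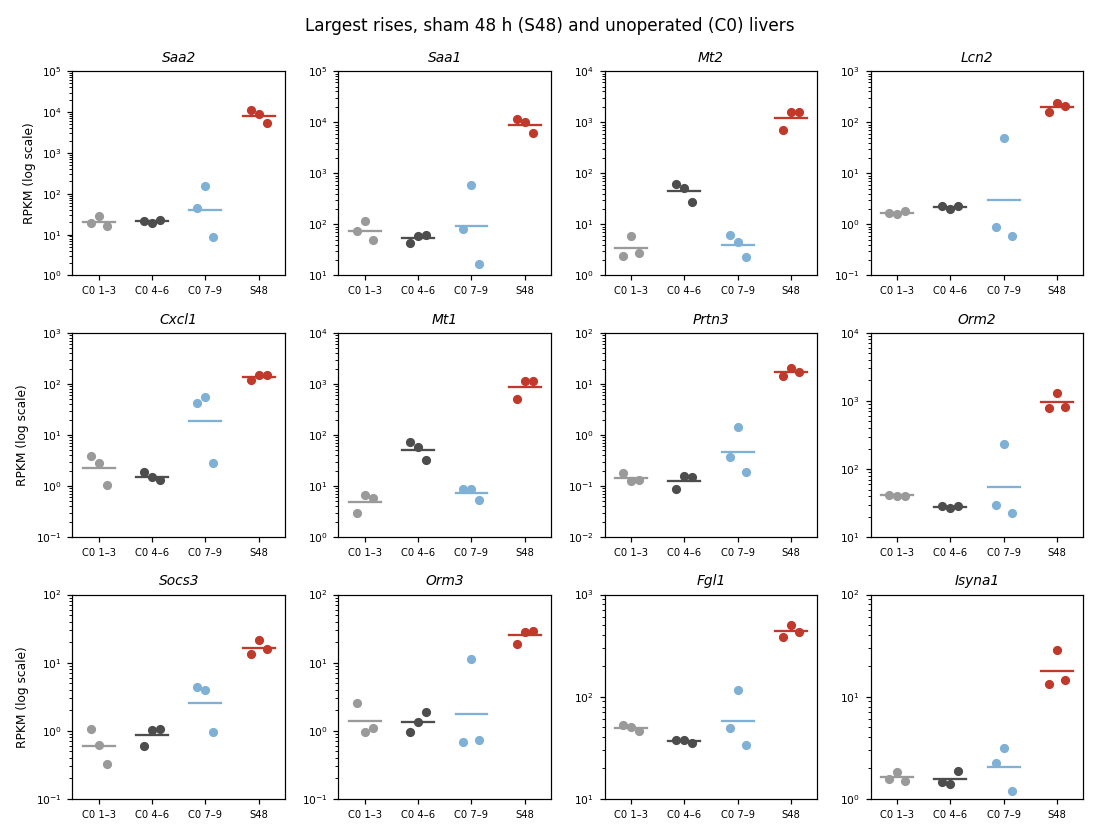
Levels (RPKM, log axis) of the 12 transcripts with the largest rises in each library of C0 replicates 1 to 3, 4 to 6 and 7 to 9 and of S48, with a bar at the geometric mean of each triplicate. The 3 S48 livers lie above all 9 C0 livers in each panel, which the rule required for C0 replicates 1 to 6. C0 replicate 8 (the middle of its triplicate) is the highest C0 point for Saa1, Saa2, Lcn2, Orm2, Orm3, Cxcl1, Prtn3, Fgl1 and Isyna1.

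Of the 36 acute-phase transcripts listed and tested, 27 were higher and 1 was lower, with a median log2 fold change of 1.82, compared with -0.045 over all genes tested. In 26 of the 27 the S48 libraries lay above all 9 C0 livers, and 26 were called higher against each of the first 2 C0 triplicates. Haptoglobin (Hp), the carrier of free hemoglobin, stood at 7148, 9439 and 7496 RPKM in S48 and at 1170 to 1406 RPKM, with a median of 1354, in C0, a change of 2.60 ± 0.25 (SE, adjusted p = 9.39e-13). Hemopexin (Hpx), which binds free heme, changed by 2.27 ± 0.25 (SE, adjusted p = 1.26e-10). The inter-alpha-trypsin inhibitor heavy chains Itih4 and Itih3 changed by 2.49 ± 0.16 (SE, adjusted p = 2.03e-19) and 2.17 ± 0.16 (SE, adjusted p = 4.59e-17). The pentraxin gene Apcs, whose protein is serum amyloid P, a major acute-phase protein of the mouse, changed by 2.90 ± 0.31 (SE, adjusted p = 5.33e-11), whereas Crp, its relative, changed by 0.67 ± 0.14 (SE, adjusted p = 0.000661). The metalloreductase gene Steap4 changed by 2.72 ± 0.43 (SE, adjusted p = 4.54e-06).

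Of the negative acute-phase transcripts of the list 1 was called. Transthyretin (Ttr), a carrier of thyroid hormone, was called lower at -0.51 ± 0.16 (SE, adjusted p = 0.0252), and this call was lost when the libraries were scaled to a common median. Its partner Rbp4, the retinol carrier, stood at 1144 to 1319 RPKM in S48 and 1462 to 1884 RPKM in C0. Its difference of -0.48 ± 0.11 (SE, adjusted p = 0.00155) did not reach the fold threshold. Albumin (Alb) stood at 25524, 28745 and 33802 RPKM in S48 and at 32273 to 38924 RPKM, with a median of 37000, in C0, and its difference of -0.31 ± 0.17 (SE, adjusted p = 0.26) did not pass the test. Saa3, another serum amyloid gene, stood at 18.9 to 26.6 RPKM in S48 and 2.15 to 6.11 RPKM in C0, with a difference of 2.36 ± 0.85 (SE, adjusted p = 0.0633).

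The promoters of the acute-phase genes were read for the letters TTCNNNGAA, which STAT factors are known to bind and which read the same on both strands. In the RefSeq table for GRCm38.p6, a window of 250 bases before and 50 after the start held these letters in 2582 of 27025 promoters (9.55%). The window was found for 28 of the 36 acute-phase genes and 6 of these held the motif (21.4%), as did 6 of the 22 acute-phase genes called higher (27.3%). In the list of interleukin-6, STAT3 and NF-kB response genes 2 of 21 windows held it (9.52%). The stretches below are shown because these genes (the 6 acute-phase genes called higher, Socs3 and Icam1, which encodes a leukocyte adhesion molecule and changed by 1.69 ± 0.30 (SE, adjusted p = 3.66e-05)) rose in S48 and carry the motif upstream of the annotated start, with the motif in capitals and each written 5′ to 3′ along the gene.
Apcs (chr1:172895240-172895304, minus strand): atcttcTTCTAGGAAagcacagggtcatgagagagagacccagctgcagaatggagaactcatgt
Fga (chr3:83025903-83025977, plus strand): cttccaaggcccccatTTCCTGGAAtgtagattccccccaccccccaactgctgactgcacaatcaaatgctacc
Fgb (chr3:83049967-83050075, minus strand): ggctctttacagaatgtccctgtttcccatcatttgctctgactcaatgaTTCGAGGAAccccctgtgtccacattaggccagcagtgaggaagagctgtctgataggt
Hamp (chr7:30944068-30944176, minus strand): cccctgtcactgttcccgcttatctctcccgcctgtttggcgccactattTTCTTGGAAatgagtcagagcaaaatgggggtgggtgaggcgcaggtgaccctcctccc
Itih4 (chr14:30886375-30886475, plus strand): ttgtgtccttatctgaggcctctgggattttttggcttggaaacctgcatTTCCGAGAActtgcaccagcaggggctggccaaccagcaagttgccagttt
Steap4 (chr5:7960306-7960414, plus strand): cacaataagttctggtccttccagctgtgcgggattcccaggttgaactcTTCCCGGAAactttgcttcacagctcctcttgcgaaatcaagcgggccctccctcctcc
Socs3 (chr11:117969462-117969570, minus strand): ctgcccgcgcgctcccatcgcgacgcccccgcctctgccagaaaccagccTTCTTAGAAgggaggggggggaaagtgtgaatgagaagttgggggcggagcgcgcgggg
Icam1 (chr9:21015848-21015939, plus strand): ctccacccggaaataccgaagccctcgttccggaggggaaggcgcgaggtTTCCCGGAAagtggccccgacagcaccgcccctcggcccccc
The motif began 42 bases before the start in Icam1, 51 in Itih4, 97 in Hamp, 116 in Steap4, 154 in Socs3, 162 in Fgb, 234 in Fga and 244 in Apcs. These are matches of letters only, and no binding was measured here.

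Of 25 transcripts tested that respond to interleukin-6, STAT3 and NF-kB, 11 were called higher and none lower by limma, with 1 lower at an unadjusted p below 0.05 and a median log2 fold change of 0.77, and 9 of the 11 were called against each of the first 2 C0 triplicates. The list median was 1.24 against C0 replicates 1 to 3, 0.51 against replicates 4 to 6 and 0.49 against replicates 7 to 9. Cxcl1, which encodes a chemokine that attracts neutrophils, stood at 121, 147 and 148 RPKM in S48 and at 1.03 to 3.90 RPKM, with a median of 1.67, in C0, a change of 6.02 ± 0.62 (SE, adjusted p = 2.53e-11). The groups were apart, which the rule for the largest rises required. C0 replicates 7 to 9 reached 41.4, 55.8 and 2.89 RPKM, closer to S48, and against them the difference was 2.83. Socs3 stood at 13.2, 21.5 and 16.1 RPKM in S48 and at 0.321 to 1.07 RPKM, with a median of 0.826, in C0, a change of 4.09 ± 0.36 (SE, adjusted p = 6.62e-14). For Socs3 the same rule applied, and all 3 S48 livers were also above C0 replicates 7 to 9.

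Stat3 itself changed by 1.18 ± 0.16 (SE, adjusted p = 7.11e-08) and Il6st, which encodes gp130, by 0.78 ± 0.14 (SE, adjusted p = 4.59e-05). The AP-1 members Junb and Fosl2 changed by 2.58 ± 0.37 (SE, adjusted p = 5.36e-07) and 1.76 ± 0.21 (SE, adjusted p = 2.09e-09). Bcl3 and Nfkbiz, which encode nuclear regulators of NF-kB, changed by 1.46 ± 0.27 (SE, adjusted p = 7.1e-05) and 1.61 ± 0.31 (SE, adjusted p = 0.000142). The interleukin-1 receptor Il1r1 stood at 28.2 to 29.8 RPKM in S48 and spread from 3.51 to 23.96 RPKM in C0, with a change of 1.64 ± 0.43 (SE, adjusted p = 0.00651). Socs2, a growth hormone feedback gene, was called at 1.97 ± 0.59 (SE, adjusted p = 0.0216), but its S48 livers (2.81 to 7.22 RPKM) overlapped with C0 replicates 7 to 9 (1.13 to 8.95 RPKM).

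Metallothioneins bind zinc and copper and are induced by metals, glucocorticoids and inflammation. Mt2 stood at 708, 1577 and 1621 RPKM in S48, with S48 replicate 1 below the other 2, and at 2.39 to 61.5 RPKM, with a median of 17.0, in C0. The C0 values fell into 2 ranges, 2.39 to 6.00 RPKM in replicates 1 to 3 and 27.9 to 61.5 RPKM in replicates 4 to 6. The pooled change of Mt2 was 6.56 ± 0.73 (SE, adjusted p = 2.35e-10), with 8.37 against C0 replicates 1 to 3 and 4.76 against replicates 4 to 6. Mt1 changed by 5.74 ± 0.62 (SE, adjusted p = 1.35e-10), with 7.41 against C0 replicates 1 to 3 and 4.06 against replicates 4 to 6. Both were called against each triplicate, so that the size of the rise, but not its call, moved with the control.

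Among 23 iron, zinc and metallothionein transcripts, 8 were higher and 2 lower, with a median of 0.03. Slc39a14, a zinc and iron importer, changed by 1.23 ± 0.24 (SE, adjusted p = 0.000156) and ceruloplasmin (Cp), a copper-bearing ferroxidase, by 0.97 ± 0.19 (SE, adjusted p = 0.000166). The hepcidin gene Hamp, whose peptide closes the iron exporter ferroportin, stood at 1275, 2382 and 790.0 RPKM in S48 and at 177 to 1264 RPKM, with a median of 654, in C0. The groups overlapped, and the change was 1.35 ± 0.44 (SE, adjusted p = 0.035). The neighbouring copy Hamp2 stood at 7.57, 19.9 and 12.7 RPKM in S48 and at 25.9 to 62.0 RPKM, with a median of 29.1, in C0, and moved the other way, by -1.51 ± 0.47 (SE, adjusted p = 0.0263), and the copies may share reads. Neither call was kept against C0 replicates 4 to 6 alone.

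Complement and coagulation proteins are made largely by hepatocytes. Of 44 of their transcripts tested, 16 were higher and 2 lower, with a median of 0.33, and 14 of the rises were called against each of the first 2 C0 triplicates. The fibrinogen chains moved by like amounts. Fga stood at 4941, 4725 and 4670 RPKM in S48 and at 1273 to 1648 RPKM, with a median of 1449, in C0, a change of 1.73 ± 0.19 (SE, adjusted p = 3.34e-10), and Fgb and Fgg changed by 1.60 ± 0.20 (SE, adjusted p = 4.21e-09) and 1.59 ± 0.19 (SE, adjusted p = 4.16e-09). Complement component C3 stood at 2658, 3174 and 2775 RPKM in S48 and at 896 to 1165 RPKM, with a median of 1102, in C0, a change of 1.43 ± 0.15 (SE, adjusted p = 4.56e-11). Complement component C4b changed by 1.39 ± 0.14 (SE, adjusted p = 1.52e-11) and complement component 5 (Hc) by 1.02 ± 0.15 (SE, adjusted p = 4.47e-07). C4b and its near-identical copy C4a may share reads. Coagulation factor XI (F11) moved the other way, from 30.9 to 38.9 RPKM in C0 to 13.1 to 21.8 RPKM in S48, a change of -0.93 ± 0.17 (SE, adjusted p = 7.51e-05).

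The labelled tissue was checked with its markers. All 24 hepatocyte markers listed were detected, and their summed level was 53491 to 63831 RPKM in S48 and 64014 to 74588 RPKM in C0, so that the groups did not overlap. Alb, whose difference did not pass the test, made up a large part of this sum. Of the 24, 1 (Hnf4a) was higher and 4 were lower (compared with 2.71% and 3.33% of all genes), with a median of -0.19. In whole-liver RNA, fewer cells of a type and less RNA per cell cannot be told apart. Nor can a shift by other abundant transcripts, since RPKM is relative to the library total. Of 15 pancreas acinar markers 8 were at 0 in all 9 libraries, and the only 1 tested, Cela1, is also made in liver and was -1.14 in S48.

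Kupffer cells are the resident macrophages of the liver. Of their 20 markers, 8 were higher, with a median of 0.81, and the summed level was 119 to 159 RPKM in S48 and 57.4 to 98.1 RPKM in C0. In C0 replicates 7 to 9 it was 90.6 to 420 RPKM, and none of the 8 called markers had S48 above all 9 C0 livers. Marco, a scavenger receptor, stood at 2.41, 3.26 and 10.6 RPKM in S48 and at 0.272 to 1.00 RPKM, with a median of 0.737, in C0, a change of 2.42 ± 0.56 (SE, adjusted p = 0.00205). Cd5l, which encodes a secreted macrophage protein, changed by 1.91 ± 0.46 (SE, adjusted p = 0.00328), and the complement receptor Vsig4 by 1.22 ± 0.41 (SE, adjusted p = 0.0392). Against C0 replicates 1 to 3 alone 1 of the 20 was called higher, and against replicates 4 to 6 alone 6 were. Against C0 replicates 7 to 9 none was called higher and 1 was lower. Vsig4 was not called there, at -0.39.

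The neutrophil markers were near the limit of detection. Their summed level was 3.83 to 7.63 RPKM in S48, 0.454 to 1.79 RPKM in C0 and 2.10 to 55.4 RPKM in C0 replicates 7 to 9, and Ly6g was at 0 in all 9 libraries of the comparison. S100a8 and S100a9, which encode the calprotectin subunits, were called higher at 2.20 ± 0.68 (SE, adjusted p = 0.0255) and 1.98 ± 0.62 (SE, adjusted p = 0.0286). Both overlapped with C0 replicates 7 to 9, where S100a8 stood at 1.55, 17.7 and 0.476 RPKM. Prtn3, which encodes a serine protease known from neutrophil granules, stood at 14.1, 20.5 and 17.4 RPKM in S48 and at 0.0866 to 0.181 RPKM, with a median of 0.142, in C0, a change of 5.49 ± 0.41 (SE, adjusted p = 8.01e-17). Every Prtn3 value in C0 replicates 1 to 6 was below the pseudocount of 0.25 RPKM and the detection threshold. Of the groups compared only S48 passed that threshold, although the gene also passed it in other groups of the fit. The size of its change therefore depends on the pseudocount (6.18 with 0.1 and 3.99 with 1). The neutrophil granule protease Elane stood at 0.0899 to 0.199 RPKM in the same S48 livers and 0 to 0.158 RPKM in C0, so the rise of Prtn3 came with Elane at low levels.

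Lymphocyte and antigen presentation markers were lower in part. Of 16 tested, 5 were lower and none higher by limma (7 lower at an unadjusted p below 0.05), with a median of -0.44 and a summed level of 24.2 to 26.2 RPKM in S48 and 28.5 to 44.8 RPKM in C0. The class II genes H2-Aa, H2-Ab1 and H2-Eb1, whose proteins present peptides to CD4+ T cells, changed by -0.82 ± 0.26 (SE, adjusted p = 0.0305), -0.82 ± 0.26 (SE, adjusted p = 0.0332) and -0.89 ± 0.26 (SE, adjusted p = 0.0167). None of these 3 was called against C0 replicates 1 to 3 alone. Of 31 interferon-stimulated transcripts 4 were lower (compared with 3.33% of all genes) and none higher by limma. Ifit3 changed by -1.11 ± 0.29 (SE, adjusted p = 0.00656) and Usp18 by -0.92 ± 0.23 (SE, adjusted p = 0.00547).

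**Figure D2:**
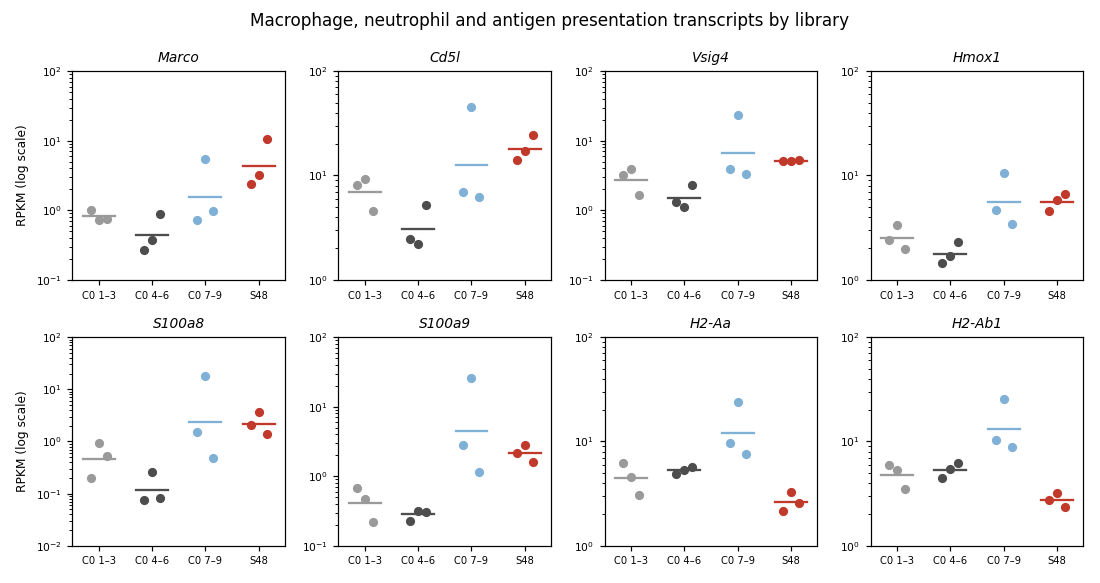
Levels (RPKM, log axis) of macrophage (Marco, Cd5l, Vsig4, Hmox1), neutrophil (S100a8, S100a9) and antigen presentation (H2-Aa, H2-Ab1) transcripts in each library, with a bar at the geometric mean of each triplicate. The S48 livers of the first 6 panels lie above C0 replicates 1 to 6 and overlap with C0 replicates 7 to 9, and in both H2 panels they lie below C0 replicates 7 to 9.

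Markers of other cells of the liver and of blood were called in part, beside 2.71% of all genes called higher and 3.33% lower. Of 22 endothelial markers none was called by limma, with a median of 0.18, and 1 had an unadjusted p below 0.05. Of 31 stellate cell and matrix transcripts 2 were higher and 1 was lower, and of these fibronectin (Fn1), which hepatocytes also secrete as a plasma protein, changed by 1.03 ± 0.14 (SE, adjusted p = 2.59e-07). Of 16 cholangiocyte and progenitor markers 3 were lower, with a median of -0.37. Of 7 erythroid markers 2 were lower and none higher by limma, also at an unadjusted p below 0.05, while the list median was 0.60. The 2, Car1 and Alas2, which encode an erythroid carbonic anhydrase and the first enzyme of heme synthesis in red cells, changed by -1.78 ± 0.25 (SE, adjusted p = 1.72e-07) and -0.94 ± 0.23 (SE, adjusted p = 0.00405). The globin genes Hba-a1, Hba-a2, Hbb-b1 and Hbb-b2 had differences of 0.60, 0.63, 0.84 and 0.80 and did not pass the test, and the copies may share reads.

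The largest falls were of different kinds of transcript. Elovl3, which encodes an elongase of very long fatty acids and is known as a male-biased, hour-dependent liver transcript, stood at 191, 31.6 and 31.9 RPKM in S48 and at 372 to 546 RPKM, with a median of 464, in C0. The S48 livers were all below C0, which the rule for the largest falls required, with replicate 1 above the other 2. The change of Elovl3 was -2.99 ± 0.44 (SE, adjusted p = 6.7e-07). Car3, which encodes carbonic anhydrase III, stood at 326, 124 and 429.8 RPKM in S48 and at 1528 to 2092 RPKM, with a median of 1666, in C0, a change of -2.73 ± 0.55 (SE, adjusted p = 0.000323). Slc17a8, which encodes a vesicular glutamate transporter, stood at 0.584, 0.505 and 0.657 RPKM in S48 and at 4.45 to 11.7 RPKM, with a median of 6.30, in C0, the largest fall by this measure, -3.09 ± 0.39 (SE, adjusted p = 1.52e-08).

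Sucnr1, which encodes the succinate receptor, stood at 7.17, 4.11 and 5.92 RPKM in S48 and at 21.4 to 34.5 RPKM, with a median of 26.7, in C0, a change of -2.22 ± 0.38 (SE, adjusted p = 2.14e-05). Acot1, a fatty acyl-CoA thioesterase gene, stood at 2.89, 3.21 and 2.43 RPKM in S48 and at 11.8 to 19.9 RPKM, with a median of 15.6, in C0, a change of -2.39 ± 0.46 (SE, adjusted p = 0.000183), and its neighbour Acot2 changed by -1.62 ± 0.45 (SE, adjusted p = 0.0121). Acot1 and Acot2 are close copies and may share reads. The transcriptional regulator gene Tsc22d1 changed by -2.31 ± 0.36 (SE, adjusted p = 3.98e-06), with -3.00 against C0 replicates 1 to 3 and -1.62 against replicates 4 to 6. The other 6 of the 12 largest falls were Gm13773, 1500017E21Rik, Gm11832, Cib3, Clec2h and Gm4956, at -2.70, -2.37, -2.37, -2.17, -2.16 and -2.12. The rule required that the S48 livers lie apart from C0 replicates 1 to 6. For each of the 12 they also lay below C0 replicates 7 to 9.

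**Figure D3:**
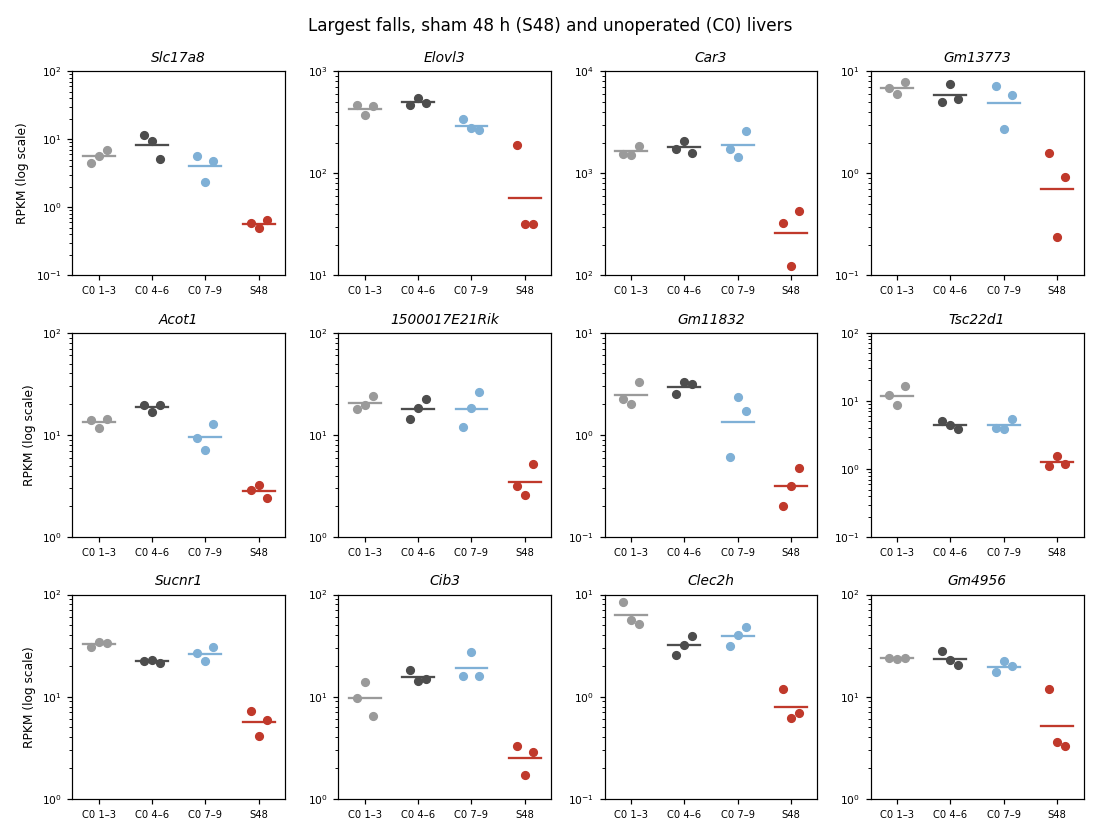
Levels (RPKM, log axis) of the 12 transcripts with the largest falls in each library of C0 replicates 1 to 3, 4 to 6 and 7 to 9 and of S48, with a bar at the geometric mean of each triplicate. The S48 livers are below all C0 livers in each panel, which the rule required for C0 replicates 1 to 6. S48 replicate 1 (the left point) is above the other 2 for Elovl3, Gm13773, Sucnr1, Clec2h, Cib3 and Gm4956.

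Male-biased liver transcripts, which depend on the pulses of growth hormone in males, were often lower. Of 24 tested, 9 were lower and 1 was higher (C8a, a complement component), with a median of -0.49, and 7 of the falls were called against each of the first 2 C0 triplicates. Cyp4a12a stood at 99.4, 35.5 and 19.2 RPKM in S48 and at 88.6 to 241 RPKM, with a median of 136, in C0. The groups overlapped in S48 replicate 1, and the change was -1.74 ± 0.43 (SE, adjusted p = 0.00433). Its near-identical copy Cyp4a12b, with which it may share reads, changed by -1.79 ± 0.39 (SE, adjusted p = 0.00102). Ugt2b1, which encodes a glucuronosyltransferase, changed by -1.32 ± 0.22 (SE, adjusted p = 9.98e-06), and Gstp1, a glutathione transferase gene, by -1.15 ± 0.22 (SE, adjusted p = 0.000169). The organic anion transporter Slco1a1 changed by -1.44 ± 0.35 (SE, adjusted p = 0.00385).

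Of 22 female-biased liver transcripts tested, 4 were lower and none higher by limma (5 and 1 at an unadjusted p below 0.05), the 4 all of the Cyp3a family (Cyp3a16, Cyp3a41a, Cyp3a41b and Cyp3a44), which may share reads, and in none did S48 lie below all 9 C0 livers. The calls depended on the control, with 2 higher and 1 lower against C0 replicates 1 to 3 and 4 lower against replicates 4 to 6. Against replicates 7 to 9, 2 of the 22 were higher and none lower by limma, compared with 1863 and 1881 of all 15396 genes. In the growth hormone and IGF axis, 3 of 21 were higher (Socs3, Socs2 and Igfbp1) and 3 lower. Igf1 stood at 49.0, 49.4 and 51.5 RPKM in S48 and at 44.6 to 59.7 RPKM, with a median of 51.2, in C0, and its difference of -0.04 ± 0.14 (SE, adjusted p = 0.909) did not pass the test. Igfbp1 and Igfbp3, which encode carriers of IGF, changed by 1.85 ± 0.61 (SE, adjusted p = 0.0374) and -1.03 ± 0.22 (SE, adjusted p = 0.000844).

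Of 43 transcripts of cytochrome P450 families 1 to 3, which oxidize drugs, steroids and fatty acids, 15 were lower and 3 higher, with a median of -0.53. Cyp3a11, a main drug-metabolizing P450 of mouse liver, stood at 1181, 752 and 865 RPKM in S48 and at 1448 to 2034 RPKM, with a median of 1725, in C0, a change of -0.91 ± 0.23 (SE, adjusted p = 0.00484). Cyp1a2 changed by -0.88 ± 0.30 (SE, adjusted p = 0.0445) and Cyp2a12 by -0.55 ± 0.10 (SE, adjusted p = 8.3e-05). Cyp3a13 went the other way, from 40.1 to 56.7 RPKM, with a median of 47.8, in C0 to 128, 167 and 116 RPKM in S48, a change of 1.497 ± 0.17 (SE, adjusted p = 2.28e-10). The P450 list depended on the control, with 7 lower against C0 replicates 1 to 3 and 11 lower against replicates 4 to 6. Against replicates 7 to 9, 4 of the 43 were lower and 8 higher, compared with 1881 and 1863 of all 15396 genes. Against both of the first 2 triplicates 4 of the falls were called.

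Of 28 bile acid genes tested, 6 were lower and none higher by limma (12 and 2 at an unadjusted p below 0.05), with a median of -0.29. Against C0 replicates 7 to 9 the balance turned, with 6 higher and 1 lower and a median of -0.05. Of all 15396 genes, 1863 were higher and 1881 lower against those livers. Cyp8b1, the sterol 12-alpha-hydroxylase that sets the share of cholic acid, stood at 58.1, 44.9 and 102 RPKM in S48 and at 197 to 273 RPKM, with a median of 244, in C0, a change of -1.87 ± 0.55 (SE, adjusted p = 0.0183). Baat, which joins bile acids to taurine, changed by -0.71 ± 0.11 (SE, adjusted p = 1.7e-06). Cyp7a1, the rate-limiting enzyme of bile acid synthesis, stood at 11.9, 15.4 and 17.8 RPKM in S48 and spread over 4.72 to 42.9 RPKM, with a median of 17.2, in C0, and its difference of -0.11 ± 0.58 (SE, adjusted p = 0.959) did not pass the test.

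In fatty acid oxidation, 7 of 41 PPAR-alpha targets and related transcripts were lower and none higher by limma (21 and 1 at an unadjusted p below 0.05), with a median of -0.39. Besides Acot1 and Acot2 they included Fabp1, the liver fatty acid binding protein gene, which stood at 2582, 2262 and 2802 RPKM in S48 and at 3636 to 7117 RPKM, with a median of 5158, in C0, a change of -0.99 ± 0.21 (SE, adjusted p = 0.000807). Against both of the first 2 triplicates 2 of the 7 were called. Of 41 urea cycle and amino acid breakdown transcripts 4 were lower and 1 higher (compared with 3.33% and 2.71% of all genes), but the balance depended on the control. Against C0 replicates 1 to 3, 4 were higher and 3 lower, and against replicates 4 to 6, 8 were lower. Against replicates 7 to 9, 8 were higher and 2 lower, compared with 1863 and 1881 of all 15396 genes. Betaine-homocysteine methyltransferase (Bhmt) stood at 264, 216 and 385 RPKM in S48 and at 439.7 to 976 RPKM, with a median of 782, in C0, a change of -1.39 ± 0.34 (SE, adjusted p = 0.00346), whereas Mat1a, which makes S-adenosylmethionine, changed by 1.01 ± 0.26 (SE, adjusted p = 0.00631).

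None of 27 cholesterol transcripts and none of 29 fatty acid and triglyceride synthesis transcripts was called by limma, with medians of -0.37 and -0.10. At an unadjusted p below 0.05, 1 of the cholesterol transcripts was higher and 6 were lower, and of the fatty acid and triglyceride transcripts 3 were lower. Of 53 cell cycle transcripts 1 was called, the replication licensing inhibitor gene Gmnn at -0.66 ± 0.17 (SE, adjusted p = 0.00722), and the list median was -0.02. Mki67, a marker of dividing cells, stood at 0.159, 0.164 and 0.304 RPKM in S48 and at 0.0533 to 0.552 RPKM, with a median of 0.104, in C0. The heat shock list had 3 of 25 higher (compared with 2.71% of all genes), with the chaperone genes Hspb8 and Hspa8 and the co-chaperone gene Bag3 at 1.14 ± 0.18 (SE, adjusted p = 6.09e-06), 0.92 ± 0.28 (SE, adjusted p = 0.0233) and 1.09 ± 0.21 (SE, adjusted p = 0.000183). The ER stress list had 2 of 30 higher (Xbp1 and Chac1) and the ribosome biogenesis and polyamine list 5 of 27, beside the same 2.71%. Of the 5, Nop58 changed by 0.86 ± 0.20 (SE, adjusted p = 0.00247).

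The median of 23 core clock and clock output transcripts was 0.05, and at an unadjusted p below 0.05, 3 were higher and 1 lower. By limma 2 were called higher (compared with 2.71% of all genes) and none lower. Both encode transcriptional repressors: Bhlhe40 stood at 23.1, 24.2 and 27.0 RPKM in S48 and at 5.96 to 15.5 RPKM, with a median of 8.90, in C0, a change of 1.40 ± 0.28 (SE, adjusted p = 0.000277), and Nfil3 changed by 0.64 ± 0.21 (SE, adjusted p = 0.0369). Arntl, which encodes the activator Bmal1, stood at 8.11, 7.26 and 9.03 RPKM in S48 and at 7.30 to 10.2 RPKM, with a median of 8.46, in C0, with a difference of -0.05 ± 0.20 (SE, adjusted p = 0.927). Nr1d1, which encodes the repressor Rev-erb-alpha, stood at 1.09, 1.16 and 2.55 RPKM in S48, and in C0 it differed between triplicates, with 5.64 to 9.69 RPKM in replicates 1 to 3 and 0.528 to 1.46 RPKM in replicates 4 to 6. Its difference was -2.09 against C0 replicates 1 to 3 and 0.54 against replicates 4 to 6.

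The calls in the glucocorticoid-induced list also depended on the control. Of 21 tested, 5 were higher and 1 lower, with a median of 0.63. Against C0 replicates 1 to 3, 13 were higher and none lower by limma, and against replicates 4 to 6, 3 were higher and 3 lower, with medians of 1.53 and -0.28. Fkbp5, which encodes a co-chaperone of the glucocorticoid receptor, stood at 7.69, 17.3 and 14.7 RPKM in S48, at 2.06 to 3.90 RPKM in C0 replicates 1 to 3 and at 17.9 to 19.7 RPKM in replicates 4 to 6. Its pooled difference of 0.70 ± 0.43 (SE, adjusted p = 0.322) did not pass the test. Of the list's rises, Mt1, Mt2 and Lcn2 were called against each of the first 2 triplicates.

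**Figure D4:**
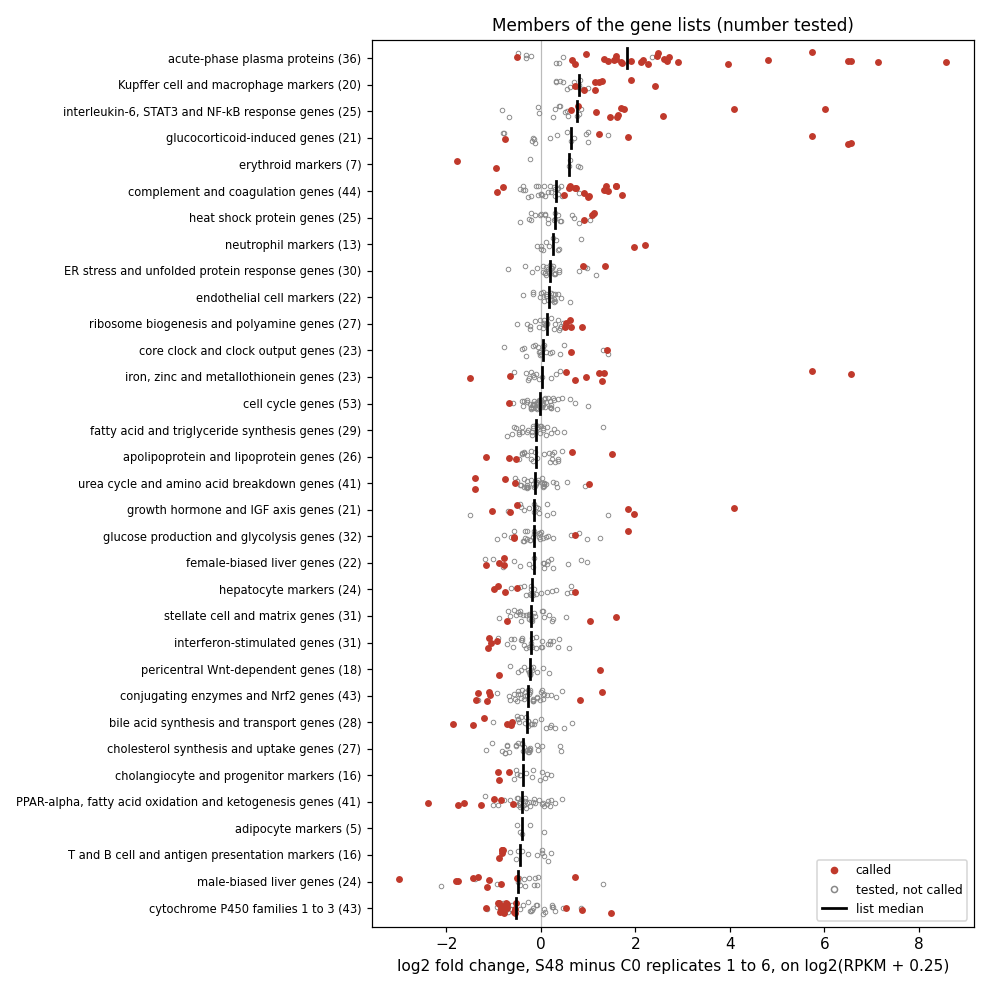
Log2 fold change (S48 minus C0 replicates 1 to 6) of each tested member of the gene lists with at least 5 tested members, ordered by their median (black bar), with called members filled. The acute-phase list has the highest median, 1.82, and the P450 list the lowest, -0.53, and most lists hold members on both sides of 0.

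Livers resected 48 h before at the same ZT2 (X48, 5 livers after partial hepatectomy) gave a second comparison that does not use the C0 livers. Against S48, 4231 genes were called (27.5%), 3801 of them higher (24.7%) and 430 lower (2.79%) in X48, and the median over all genes was 0.27. With the libraries scaled to a common median, 2648 were called, 1314 of them higher (8.53%) and 1334 lower (8.66%), with a median of -0.03, so that directions here are relative to this shift. The difference in Mki67 was 5.25 ± 0.29 (SE, adjusted p = 9.81e-25) and that in Ccnd1, which encodes cyclin D1, 2.62 ± 0.38 (SE, adjusted p = 5.41e-08). Of the 53 cell cycle transcripts 50 were higher in X48 as deposited and 45 with the common median.

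The acute-phase transcripts were high in both operated groups. X48 minus S48 was -1.17 ± 0.70 (SE, adjusted p = 0.17) for Saa2, 0.06 ± 0.25 (SE, adjusted p = 0.897) for Hp, -0.08 ± 0.20 (SE, adjusted p = 0.798) for Fga and -0.13 ± 0.75 (SE, adjusted p = 0.93) for Mt2, none of which passed the test. Over the 36 acute-phase transcripts the median difference was 0.00, and 3 were called higher and 4 lower in X48. With the common median none was higher and 10 were lower in X48 by limma, with a median of -0.40. Lcn2 was called higher in X48 at 1.52 ± 0.64 (SE, adjusted p = 0.0449), and this call was lost with the common median, whereas Cxcl1 was lower at -1.78 ± 0.64 (SE, adjusted p = 0.0186), Hamp at -1.65 ± 0.45 (SE, adjusted p = 0.00201) and Hamp2 at -3.15 ± 0.48 (SE, adjusted p = 1.77e-07) under both.

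This comparison shares the S48 livers with the one above, so that the values are given side by side only. Elovl3 differed by -1.92 ± 0.45 (SE, adjusted p = 0.000364), Car3 by -2.15 ± 0.57 (SE, adjusted p = 0.00138) and Gm4956 by -3.28 ± 0.32 (SE, adjusted p = 2.6e-13), X48 minus S48. Acot1 and Acot2 were higher in X48, by 1.90 ± 0.48 (SE, adjusted p = 0.000835) and 1.97 ± 0.46 (SE, adjusted p = 0.000367).

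The other sham groups were collected at other hours of the day (ZT3, ZT6, ZT12 and ZT22), so that their values are given side by side, as means ± SD of log2(RPKM + 0.25), with no test. Saa2 was 4.40 ± 0.27 in C0, 6.14 ± 2.12 at 1 h, 13.32 ± 0.59 at 4 h, 14.11 ± 0.16 at 10 h, 13.87 ± 0.24 at 20 h and 12.98 ± 0.50 at 48 h. Thus its level at 48 h was below those at 10 h and 20 h and above that of C0. Socs3 was 4.57 ± 0.49 at 4 h, 2.79 ± 0.51 at 20 h and 4.07 ± 0.35 at 48 h, so that its mean at 48 h was above that at 20 h. Mt2 was likewise 8.45 ± 1.11 at 20 h and 10.25 ± 0.68 at 48 h, whereas Lcn2 was 9.12 ± 0.23 and 7.63 ± 0.31. Fgl1 was 7.91 ± 0.45 at 4 h, 8.56 ± 0.02 at 20 h and 8.77 ± 0.20 at 48 h, the highest mean of its course and close to that at 20 h. Elovl3 was 3.10 ± 0.42 at 10 h, 6.21 ± 0.62 at 20 h and 5.86 ± 1.49 at 48 h, compared with 8.85 ± 0.18 in C0.

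**Figure D5:**
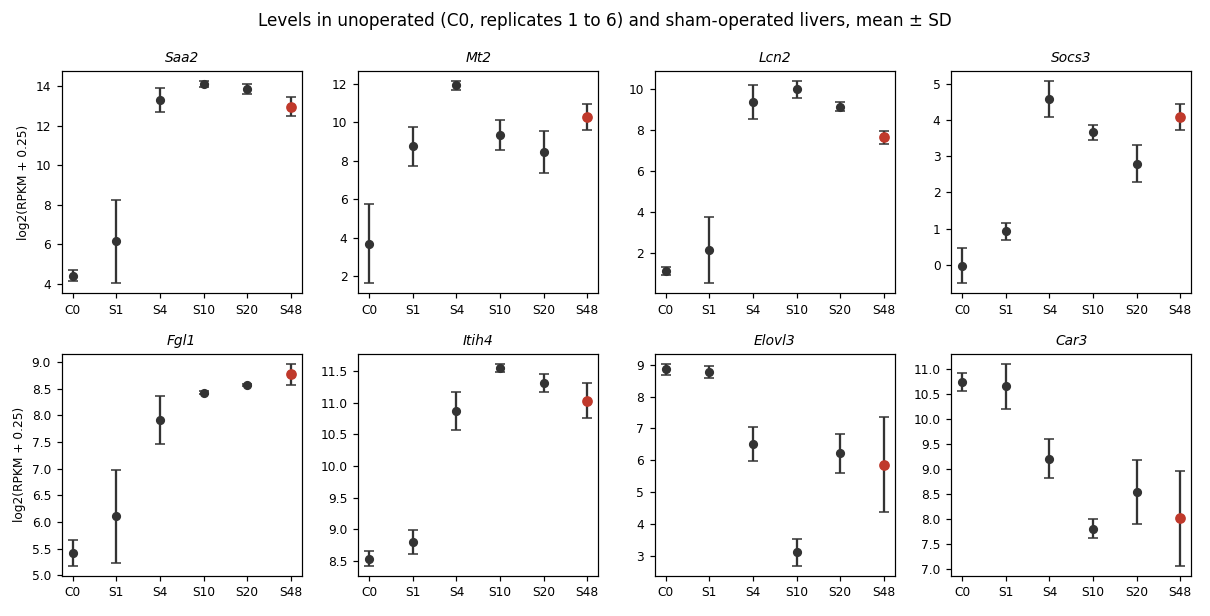
Mean ± SD of log2(RPKM + 0.25) in C0 replicates 1 to 6 and in the sham groups S1, S4, S10, S20 and S48 (named by hours, S48 in red) for 8 transcripts, with the groups spaced evenly. At 48 h Saa2, Mt2, Lcn2, Socs3, Fgl1 and Itih4 are above C0 and Elovl3 and Car3 below it. The groups differ in the hour of the day.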

How the data were processed

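Poly(A) RNA from individual mouse livers was sequenced from stranded libraries. The authors mapped reads to mm9 with TopHat 2.0.13 and Bowtie2, counted them per Ensembl gene with featureCounts, with reads of several positions divided among them, and deposited log2 RPKM values of 37991 genes, where a gene without reads is listed at -14.29. Of 84 columns, 80 were matched to labelled samples and 4 matched none and were not used. Because RPKM is relative to the library total, abundant transcripts shift all others.

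From these values, log2(RPKM + 0.25) was fitted with limma 3.58.1 in R 4.3.3 (Python 3.11.15 for tables), with a coefficient for each group, on 15396 genes above -1.5 (log2 RPKM) in at least 1 library. The script was tested on simulated data. Depth was estimated from the value of 1 read. Intervals marked SE are moderated standard errors of the limma fit. They take each gene's spread from all groups in the fit, not from the S48 and C0 livers alone. Named genes are the 12 largest rises and falls, up to 4 called members of each of 35 lists, and 19 fixed genes. Other list members, such as Stat3, Cp and Hpx, were named after their values were seen. The libraries, lists and rules were chosen with earlier results of these data known. Alternatives changed the pseudocount, filter, scaling, model, control triplicate and replicates.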

Additional observations from a re-analysis of the deposited data

Results flagged for a closer look

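Among the 6 C0 livers of the comparison, 5 named transcripts had 1 liver far from the other 5, by a gap over range above Dixon's critical value. These were Nfil3 at 18.3 RPKM in C0 replicate 3 (gap over range 0.64), Mki67 at 0.552 RPKM in C0 replicate 2 (gap over range 0.761), Lipc at 79.7 RPKM in C0 replicate 1 (gap over range 0.669), Ugt2b1 at 315 RPKM in C0 replicate 2 (gap over range 0.695) and Gstm6 at 65.1 RPKM in C0 replicate 3 (gap over range 0.723). Chance alone gives about 1 such group in 20, and 109 named genes were examined. Of the 5, Nfil3, Lipc, Ugt2b1 and Gstm6 were called in S48 against C0 and Mki67 was not.

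Other named transcripts differed between the livers of both surgeries at 48 h, in the limma test of X48 minus S48 on log2(RPKM + 0.25). Values are relative to a median over all genes of 0.27 as deposited, and both comparisons share the S48 livers. As deposited, 24.7% of all genes were called higher and 2.79% lower in X48, and with a common median 8.53% and 8.66%. Of 47 named transcripts higher in S48 than in C0, 6 were higher in X48 and 7 lower. Of 50 lower in S48, 9 were higher in X48 and 12 lower. The shares called higher were thus below that of all genes, and the shares called lower above it. Of the transcripts higher in S48 than in C0, 6 were higher still in X48, namely Lcn2 (1.52, adjusted p = 0.0449), Isyna1 (1.64, adjusted p = 6.44e-06), Apoa4 (2.13, adjusted p = 3.21e-05), Slc13a3 (0.87, adjusted p = 0.00102), Nop58 (0.89, adjusted p = 0.000368) and Ldha (0.92, adjusted p = 4.96e-06). Lower in X48 than in S48 were Cxcl1 (-1.78, adjusted p = 0.0186), Junb (-1.003, adjusted p = 0.0277), Socs2 (-1.70, adjusted p = 0.0181), Cyp3a13 (-0.67, adjusted p = 0.000991), Bhlhe40 (-0.72, adjusted p = 0.035), Chac1 (-1.55, adjusted p = 0.00244) and Hamp (-1.65, adjusted p = 0.00201).

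Of the transcripts lower in S48 than in C0, 9 were higher in X48 than in S48, namely Eno1 (0.58, adjusted p = 0.00226), Gmnn (2.23, adjusted p = 7.02e-17), Cyp3a44 (0.97, adjusted p = 0.000569), Cyp3a11 (0.56, adjusted p = 0.0428), Usp18 (0.88, adjusted p = 0.00196), Lipg (1.11, adjusted p = 0.00272), Slco1a4 (1.09, adjusted p = 0.00772), Acot2 (1.97, adjusted p = 0.000367) and Acot1 (1.90, adjusted p = 0.000835). Another 12 were lower again in X48, namely Lipc (-0.63, adjusted p = 0.00141), Tdo2 (-0.99, adjusted p = 0.000116), Alas2 (-1.22, adjusted p = 2.5e-05), Igfbp3 (-0.89, adjusted p = 0.00101), Ugt2b1 (-0.89, adjusted p = 0.000916), Hamp2 (-3.15, adjusted p = 1.77e-07), Car1 (-1.94, adjusted p = 3.12e-09), Gm4956 (-3.28, adjusted p = 2.6e-13), Sucnr1 (-1.41, adjusted p = 0.00236), Gm13773 (-1.06, adjusted p = 0.02), Car3 (-2.15, adjusted p = 0.00138) and Elovl3 (-1.92, adjusted p = 0.000364). With the libraries scaled to a common median, these transcripts were called again except for Lcn2, Slc13a3, Nop58, Eno1, Cyp3a44, Cyp3a11, Usp18 and Slco1a4. That scaling added calls lower in X48 for 9 of the transcripts higher in S48 than in C0 (Apon, Fosl2, Hnf4a, Hspb8, Igfbp1, Mat1a, Nfil3, Orm3 and Socs3), which made 16, and for 9 of those lower in S48 (Agxt2l1, Cela1, Cyp4a12a, Gstm6, H2-Aa, H2-Ab1, H2-Eb1, Ifit3 and Pdk2), which made 21, and it added none higher in X48 by limma.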

How the results depend on the processing

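Of the 97 called transcripts named, 96 remained called with a pseudocount of 0.1, 93 with 1, 85 without a filter on low values, 97 with a common median, 93 after quantile normalisation, 84 with the 9 libraries alone and 84 with array weights. None of these settings turned a direction. Against C0 replicates 1 to 3 alone 72 remained, against replicates 4 to 6 alone 77 and against replicates 7 to 9 67, where S100a8 (-0.23), S100a9 (-1.02), Vsig4 (-0.39) and Cyp3a16 (0.28) turned. The cause was not tested.

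The 930 calls became 3744 against C0 replicates 7 to 9 (1863 higher and 1881 lower), and calls in the gene lists went from 160 to 265. Higher calls were 278 with a pseudocount of 1, and lower calls were 778 with all 9 C0 livers. Leaving out each liver in turn gave 683 to 957 calls (296 to 441 higher and 332 to 516 lower, the last lowest without S48 replicate 1), 113 to 162 calls in the lists and 26 to 28 in the acute-phase list. X48 against S48 gave 2776 calls with a pseudocount of 1, 2648 with the common median and 3673 to 4381 with a liver left out.

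Replicate numbers were shared by the groups. The deviations of same-numbered S48 and C0 livers had correlations of -0.15, -0.14 and 0.12, and those of S48 and X48 -0.03, 0.05 and 0.10. With so few S48 livers, and with differences between the C0 triplicates, these values cannot show whether same-numbered livers were paired. With the replicate number as a block, over the 9 libraries alone, 2 genes were called (2 higher and 0 lower by limma), 1 in the lists and 1 in the acute-phase list, and 2472 in X48 against S48. Some C0 livers have no S48 liver of the same number, so few livers could be compared within a block. In the block fit the S48 difference comes only from C0 livers that share a replicate number with an S48 liver. Its size can therefore differ from the pooled difference. Whether a call lost in the block fit reflects a smaller effect was not tested. Depth limits transcripts near the detection threshold, such as the neutrophil markers.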
